A study of Mus musculus with 2 samples.

Results

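The translation initiation factors of the mouse left ventricle are described here by their messenger RNAs. They were taken as every row of the deposited expression table whose gene symbol begins with Eif and a digit from 1 to 6, which includes the kinases of eIF2 and the proteins that bind eIF4E. This gave 57 of 31920 rows. Of these, 55 were measured, meaning that they had at least 5 reads per 1000000 reads assigned to genes (RPM) in the higher library. Eif2c1, Eif2c2, Eif2c3 and Eif2c4 are older symbols of the Argonaute genes Ago1 to Ago4, which encode small RNA-guided silencing proteins and not initiation factors. They fall under the name rule and are kept apart below.

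The 1 library labelled Lamp2 knockout and the 1 wildtype library were made from polyadenylated RNA of the cardiac left ventricle of male 129-SvEv mice aged 10 weeks. LAMP2 is a membrane protein of lysosomes, and the series concerns impaired autophagy in the heart. The labels name neither the allele nor the part of the gene it removes, and they do not say whether animals were pooled. Lamp2 had 986 reads in the knockout-labelled library and 990 in the wildtype library, so the count of this gene is no check of the genotype, and directions below refer to the label alone. With 1 library per group there is no replicate check, no test of the genotypes was made, and the 95% intervals cover counting error only.

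The libraries held 8773820 reads (knockout label) and 8410593 reads (wildtype). Mitochondrially encoded rows held 16.2% of reads in the knockout-labelled library and 26.5% in the wildtype library, and every RPM of a nuclear gene depends on that share. The ventricular muscle markers were present in both libraries, at a summed 51346 and 53698 RPM over 8 of 8 genes, while 0 of 3 atrial markers were measured. Macrophage markers summed to 141 RPM (knockout label) and 78.1 RPM (wildtype) over 4 rows, all of them higher in the knockout-labelled library. Neutrophil markers summed to 12.1 and 0.951 RPM over 4 rows, of which S100a9 was measured. Of 5 fibroblast markers, 4 were lower with the knockout label, 3 of them by 2-fold or more, with sums of 451 and 496 RPM. Endothelial markers summed to 555 and 544 RPM, those of smooth muscle and pericytes to 696 and 767 RPM, and the 2 erythrocyte rows to 139.7 and 165 RPM, each pair being knockout label and wildtype. The part of these cell types in the values of the initiation factors was not tested. In a bulk sample, fewer cells of a type and less RNA per cell cannot be told apart.

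Translation of most messenger RNAs begins when eIF2 brings the initiator tRNA to the small ribosomal subunit, where eIF1, eIF1A, eIF3 and eIF5 hold it. The cap-binding complex eIF4F, made of eIF4E, the scaffold eIF4G and the helicase eIF4A, recruits this subunit to the messenger RNA. Initiation is restrained by phosphorylation of eIF2, which blocks its exchange factor eIF2B, and by 4E-binding proteins, which hold eIF4E away from eIF4G until the kinase mTORC1 phosphorylates them. Muscle growth of the heart depends on protein synthesis, and these are its main control points.

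The 2 highest ratios among the factors were those of the 4E-binding protein genes Eif4ebp3 and Eif4ebp1. Eif4ebp3 passed the minimum of 5 RPM in the knockout-labelled library only. The paralog Eif4ebp2 was not among these 2, with a ratio of 1.11 (0.990 to 1.24). The coding stretch of the eIF4E-binding motif, from the transcripts of the GENCODE M21 annotation (GRCm38), is shown for Eif4ebp1 and Eif4ebp2. It runs from a tyrosine codon to a leucine codon within the 39 bases printed, which lie on chromosome 8 for Eif4ebp1 and chromosome 10 for Eif4ebp2. Capitals mark the 10 bases that differ between the paralogs.
Eif4ebp1: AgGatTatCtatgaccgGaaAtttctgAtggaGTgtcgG
Eif4ebp2: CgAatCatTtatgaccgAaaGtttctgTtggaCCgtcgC
Over 346 aligned coding bases the paralogs were 69.1% identical, and their longest identical run was 14 bases, so the coding sequences differ in every stretch longer than that.

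Ratios below are RPM in the knockout-labelled library over RPM in the wildtype library. A row counted as higher or lower by a stated size when the ratio of RPM plus a pseudocount of 1 reached that size, which understates differences of low genes. Together the 57 rows took 0.671% of reads in the knockout-labelled library and 0.548% in the wildtype library, a ratio of 1.22 (95% interval 1.21 to 1.24). Of the 55 measured rows, 43 had the higher value in the knockout-labelled library and 12 the lower. Among all measured rows 61.2% were higher, so most of the table leaned the same way on the deposited scale. The counting interval lay above 1 for 26 of the 55 rows and below 1 for 2, against 35.0% and 16.8% of all measured rows. This lean depends on the scaling. After division by the median ratio of the table, 18 intervals lay above 1 and 6 below. After division by a trimmed mean of log ratios, 17 lay above and 6 below. With a library total that leaves out mitochondrial rows and the 10 rows with most reads, 13 lay above and 8 below. The interval shares of all measured rows under these rescalings are not given here, so these counts cannot be set against the table. By ratios and not intervals, 31 of 55 were above 1 with that last total, against 44.0% of all measured rows. On the log2 scale with the pseudocount, the median ratio of the 55 rows was 0.21, with quartiles of 0.07 and 0.33. The median over all 10209 measured rows was 0.11, with quartiles of -0.16 and 0.39.

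**Figure D1:**
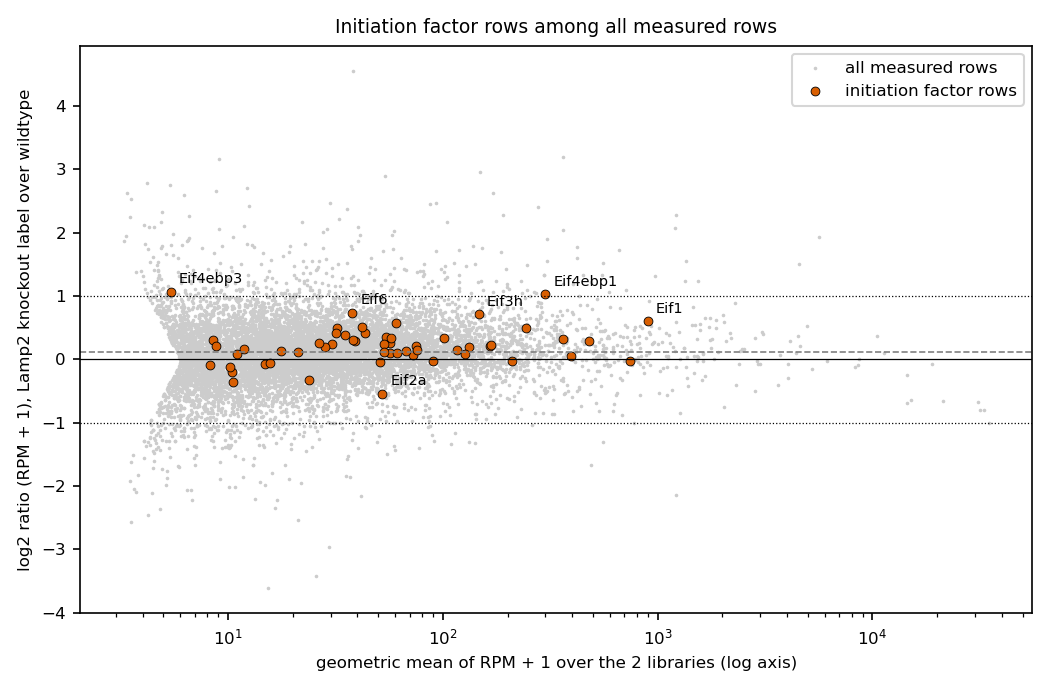
Each point is a measured row, at its geometric mean of RPM + 1 over the 2 libraries (x axis, log scale) and its log2 ratio of RPM + 1, knockout label over wildtype (y axis). Orange points are the 55 initiation factor rows, which lie between -0.54 and 1.07, and the dashed line is the median of all measured rows at 0.11.

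Within 1.5-fold of equal lay 50 of the 55 rows, or 90.9%, against 79.9% of all measured rows. Past 1.5-fold towards the knockout label lay 5 rows, Eif4ebp3, Eif4ebp1, Eif6, Eif3h and Eif1, against a background of 12.8% of all measured rows. At least 1.5-fold lower were 0 of 55 rows, against 7.3% of all measured rows. At least 2-fold higher were 2 rows, Eif4ebp3 and Eif4ebp1, against 3.35%, and at least 2-fold lower were 0, against 2.37%. Eif4ebp3 passed the minimum in the knockout-labelled library only, at 6.84 against 2.73 RPM, so its direction was fixed by that rule. The number of rows at least 1.5-fold higher is thus near the background share, and the rows spread less than the table as a whole. Dividing all ratios by the median ratio of the table, a shift of 0.12 on the log2 scale, left 4 rows 1.5-fold higher and 0 rows 2-fold higher and made 1 row, Eif2a, 1.5-fold lower.

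**Figure D2:**
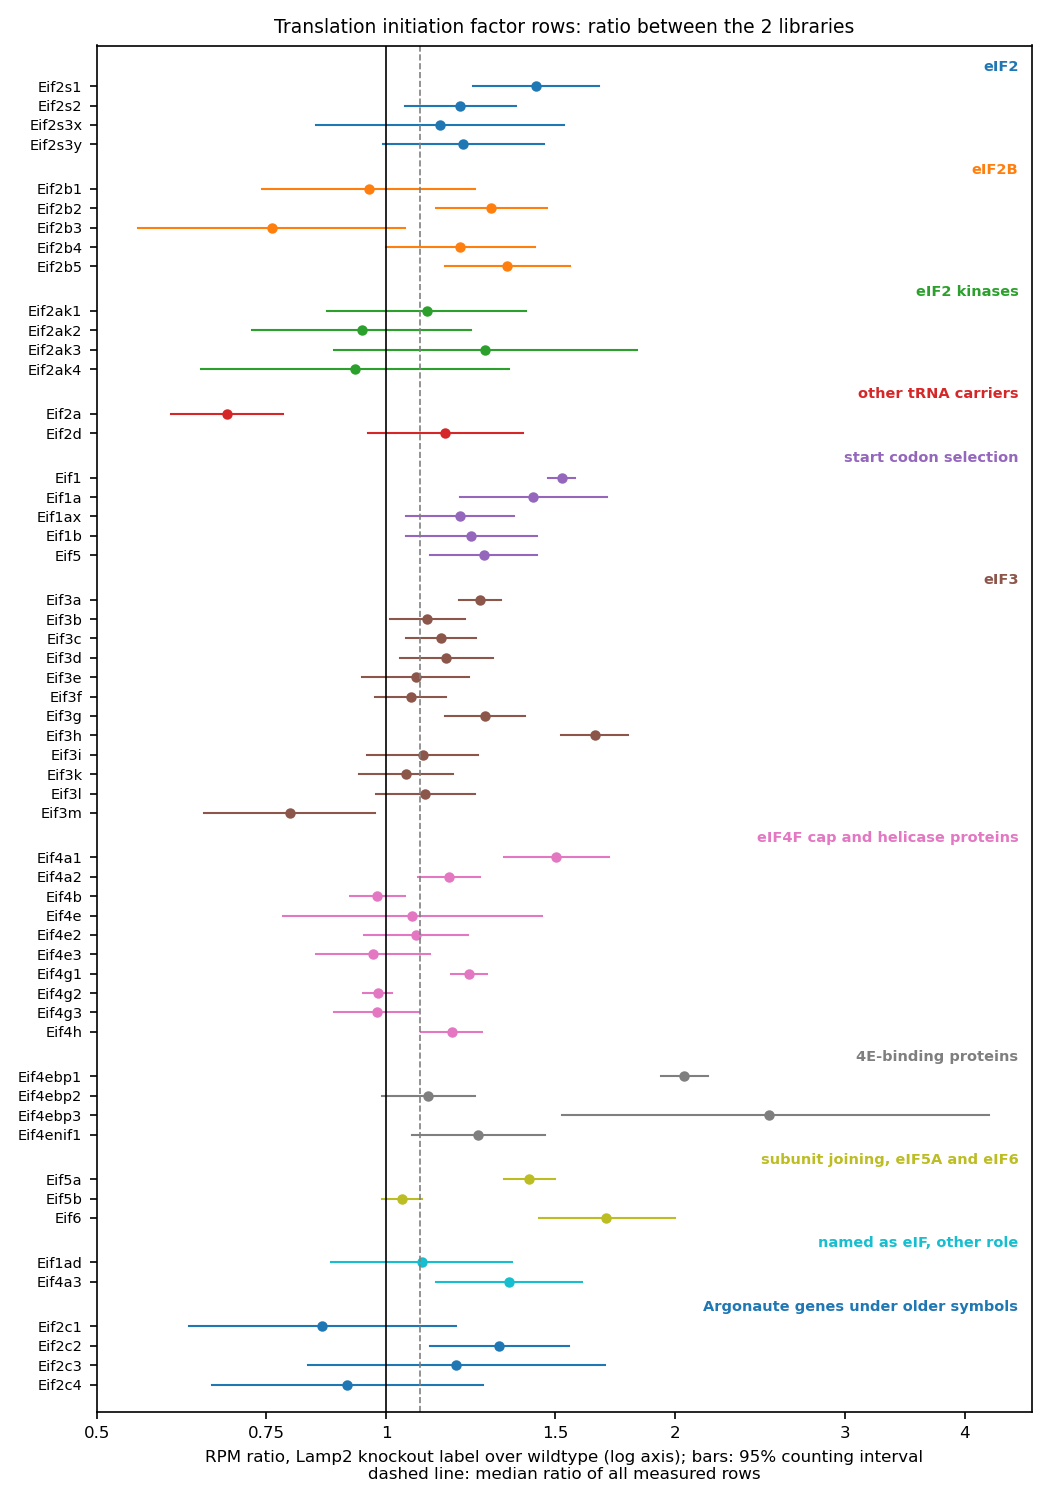
RPM ratio of every measured initiation factor row, knockout label over wildtype (x axis, log scale), grouped by role, with 95% counting intervals as bars. The dashed line is the median ratio of all measured rows, 1.08; Eif4ebp1 and Eif4ebp3 lie farthest to the right and Eif2a farthest to the left.

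eIF2 is a trimer whose subunits α, β and γ carry the initiator tRNA, and its α subunit is the target of the stress kinases. All 4 genes of these 3 subunits had ratios above 1 under each scaling tried. For 2 of them the counting interval on the deposited scale lay above 1, which became 1, Eif2s1, under each rescaling. Of all measured rows, 61.2% had ratios above 1 and 35.0% had intervals above 1 on the deposited scale. With the total that leaves out mitochondrial rows and the 10 rows with most reads, 44.0% had ratios above 1. The share of all measured rows with intervals above 1 under the rescalings is not given here. Eif2s1, the gene of the α subunit, had 433 reads against 290 in the wildtype library, or 49.4 against 34.5 RPM, a ratio of 1.43 (1.23 to 1.67). Eif2s2, the gene of the β subunit, was at 57.3 RPM (knockout label) and 48.0 RPM (wildtype), a ratio of 1.19 (1.04 to 1.36). The annotation holds 2 pseudogenes near-identical to part of Eif2s1 and 1 near-identical to part of Eif2s2. How such reads were placed is not given, and their part in these ratios was not tested.

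The γ subunit has an X-linked and a Y-linked gene in the mouse. Eif2s3x had 102 reads in the knockout-labelled library and 86 in the wildtype library, or 11.6 against 10.2 RPM, a ratio of 1.14 (0.845 to 1.53). Eif2s3y had 246 and 196 reads, or 28.0 against 23.3 RPM, a ratio of 1.20 (0.993 to 1.46), so both intervals hold 1. Per kilobase of exon, the Y-linked gene stood at 6.74 and 5.60 RPM and the X-linked gene at 3.05 and 2.68 RPM in the knockout-labelled and wildtype libraries. The Y-linked copy therefore gave 68.8% of the summed level per kilobase of the pair in the knockout-labelled library and 67.6% in the wildtype library. The number of Eif2s3x reads per Eif2s3y read, compared between the libraries, had a ratio of 0.945 (0.661 to 1.35), an interval that holds 1. The coding sequences are 86.3% identical with a longest identical run of 34 bases, so some reads may be assigned to either. In the annotation, 1 pseudogene is near-identical to part of the Eif2s3x coding sequence.

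eIF2B reloads eIF2 with GTP, and its 5 genes did not share a direction, with 3 ratios above 1 and 2 below under each scaling. Eif2b5, which encodes the catalytic ε subunit, was at 49.1 RPM in the knockout-labelled library and 36.7 RPM in the wildtype library, a ratio of 1.34 (1.15 to 1.55). Eif2b2, for the β subunit, was at 60.3 and 46.8 RPM with a ratio of 1.29 (1.13 to 1.47). Eif2b3, for the γ subunit that pairs with ε in the catalytic part, was at 8.32 RPM (knockout label) and 10.9 RPM (wildtype), a ratio of 0.761 (0.552 to 1.05). That interval holds 1, but it lay below 1 under each rescaling, at 0.509 to 0.964 after division by the median ratio. Eif2b1, for the regulatory α subunit, had 126 reads in each library. Eif2b4, for the δ subunit, had a ratio of 1.19 (0.9995 to 1.43), and a neighbour on the opposite strand, Snx17, shares 204 bases of its exons.

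All 4 eIF2 kinases were measured at low levels, and for none did the counting interval exclude 1 under any scaling. Eif2ak1, whose product HRI responds to heme deficiency, had 154 reads in the knockout-labelled library and 134 in the wildtype library, or 17.6 against 15.9 RPM, a ratio of 1.10 (0.868 to 1.399). Eif2ak2, which encodes the double-stranded RNA sensor PKR, had 118 and 120 reads, or 13.4 against 14.3 RPM, a ratio of 0.943 (0.725 to 1.23). Eif2ak3, which encodes PERK, the kinase of the endoplasmic reticulum stress response, had 74 and 56 reads, or 8.43 against 6.66 RPM, a ratio of 1.27 (0.883 to 1.83). Eif2ak4, which encodes the amino acid starvation sensor GCN2, had 61 and 63 reads, or 6.95 against 7.49 RPM, a ratio of 0.928 (0.642 to 1.34). Differences inside these intervals were not detectable at this depth. Summed over the kinases there were 407 reads in the knockout-labelled library and 373 in the wildtype library, a ratio of 1.05 (0.907 to 1.21).

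The phosphatase subunits that reverse eIF2 phosphorylation belong to a separate list of translation control genes. Ppp1r15a, the stress-induced subunit GADD34, was at 54.9 RPM (knockout label) and 47.8 RPM (wildtype), and Ppp1r15b, the constitutive subunit, was at 23.8 and 21.4 RPM. Their ratios were 1.15 (1.005 to 1.32) and 1.11 (0.908 to 1.37), near the median ratio of all measured rows, 1.08.

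Eif2a and Eif2d encode single-chain proteins that can bring tRNA to the ribosome without eIF2, and they differed in direction under each scaling. Eif2a (chr3:58525821-58557501, mm10, plus strand), which is not the gene of the α subunit of eIF2, had 372 reads in the knockout-labelled library and 522 in the wildtype library, or 42.4 against 62.1 RPM. Its ratio of 0.683 (0.596 to 0.782) was the lowest of the measured rows. The adjacent gene Serp1, on the opposite strand, shares 72 bases of exon with Eif2a and was itself at 8.89 RPM (knockout label) and 11.5 RPM (wildtype). Eif2d was at 29.2 and 25.3 RPM, a ratio of 1.15 (0.957 to 1.39).

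Of the genes that act on start codon selection, all 5 had intervals above 1 on the deposited scale. Their ratios were above 1 under each scaling. Of all measured rows, 35.0% had intervals above 1 and 61.2% had ratios above 1 on the deposited scale. After division by the median ratio of the table, 3 of the 5 intervals still lay above 1. With a library total that leaves out mitochondrial rows and the 10 rows with most reads, 2 did. By ratios and not intervals, 5 of 5 were above 1 with that total, against 44.0% of all measured rows. The share of all measured rows with intervals above 1 under the rescalings is not given here. Eif1 (chr11:100319996-100322096, mm10, plus strand) encodes the factor that keeps the scanning ribosome from starting at wrong codons. It had 9706 reads in the knockout-labelled library and 6112 in the wildtype library, or 1106 against 727 RPM, a ratio of 1.52 (1.47 to 1.57). It held the most reads of the 57 rows in the knockout-labelled library and stood behind Eif4g2 in the wildtype library. The summed start codon group, most of it Eif1, had a ratio of 1.47 (1.43 to 1.52). The paralog Eif1b had 371 and 290 reads, or 42.3 against 34.5 RPM, a ratio of 1.23 (1.05 to 1.43). The number of Eif1 reads per Eif1b read was 26.2 in the knockout-labelled library against 21.1 in the wildtype library. That within-library comparison does not depend on scaling and differed by 1.24-fold (1.06 to 1.46). The annotation holds 13 other genes with a stretch of at least 100 bases at least 95% identical to the Eif1 coding sequence, of which 12 are pseudogenes, and how the authors placed such reads is not given in the sources used here.

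Eif1a and Eif1ax both encode eIF1A, which works with eIF1 during scanning. Eif1a had 325 reads in the knockout-labelled library and 219 in the wildtype library, or 37.0 against 26.0 RPM. The X-linked Eif1ax had 532 and 427 reads, or 60.6 against 50.8 RPM. In the annotation, 1 other gene is near-identical to part of the Eif1a coding sequence. The ratios of Eif1a and Eif1ax were 1.42 (1.19 to 1.70) and 1.19 (1.05 to 1.36). The ratio of these ratios was 1.19 (0.957 to 1.48), an interval that holds 1, and this pair was chosen after its values were seen. Eif5, the GTPase activator of eIF2 that fires when the start codon is found, was at 63.4 and 50.2 RPM, a ratio of 1.26 (1.11 to 1.44).

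eIF3 is the large scaffold that holds the small subunit together with the other factors, and 12 of its subunit genes have rows, all measured. On the deposited scale 11 of the 12 had ratios between 1.05 and 1.65, and Eif3m was below 1. Of all measured rows, 61.2% had ratios above 1 on that scale. The lean of the subunits depends on the scaling, since 8 of 12 ratios were above 1 after division by the median ratio. With the total that leaves out mitochondrial rows and the 10 rows with most reads 5 were, against 44.0% of all measured rows. Eif3h (chr15:51786563-51865461, mm10, minus strand) had 1643 reads in the knockout-labelled library and 956 in the wildtype library, or 187 against 114 RPM, a ratio of 1.65 (1.52 to 1.79). Eif3h encodes a subunit with an MPN domain, the same domain type as the product of Eif3f, and Eif3f was at 129 and 122 RPM with a ratio of 1.06 (0.974 to 1.16). The counting intervals of Eif3h and Eif3f do not overlap. In the annotation, 1 pseudogene is near-identical to part of the Eif3h coding sequence.

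Eif3m, one of the core subunits, had 178 reads in the knockout-labelled library and 215 in the wildtype library, a ratio of 0.794 (0.647 to 0.973). Its opposite-strand neighbour Ccdc73, which shares 82 bases of exon, had 3 and 22 reads. Eif3a, the largest subunit, was at 406 RPM (knockout label) and 324 RPM (wildtype), a ratio of 1.25 (1.19 to 1.32). A separate same-strand row, AK087340, ends at the same base as Eif3a and had 1056 and 549 reads, so reads of this locus may be divided between the rows. Eif3g, an RNA-binding subunit, was at 113 and 89.3 RPM with a ratio of 1.27 (1.15 to 1.40). Across the 12 subunits the summed ratio was 1.20 (1.17 to 1.23) and the median log2 ratio was 0.14.

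Although the subunits assemble in one complex, their messenger RNA levels per kilobase of exon spread widely within each library. In the knockout-labelled library they lay between 7.83 RPM per kilobase for Eif3m and 116 for Eif3h. In the wildtype library they lay between 7.998 for Eif3e and 70.5 for Eif3h. Eif3h stood first in both libraries, and Eif3g second at 57.0 (knockout label) and 45.0 (wildtype). With the length of the longest transcript in place of all exons, Eif3h stayed first at 145 and 87.8, and the lowest were Eif3m at 10.3 and 13.0 and Eif3e at 14.0 and 13.0. The annotation also holds 2 pseudogenes near-identical to part of Eif3e and 1 near-identical to part of Eif3m. How such reads were placed is not given, and their part in these levels was not tested. 

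**Figure D3:**
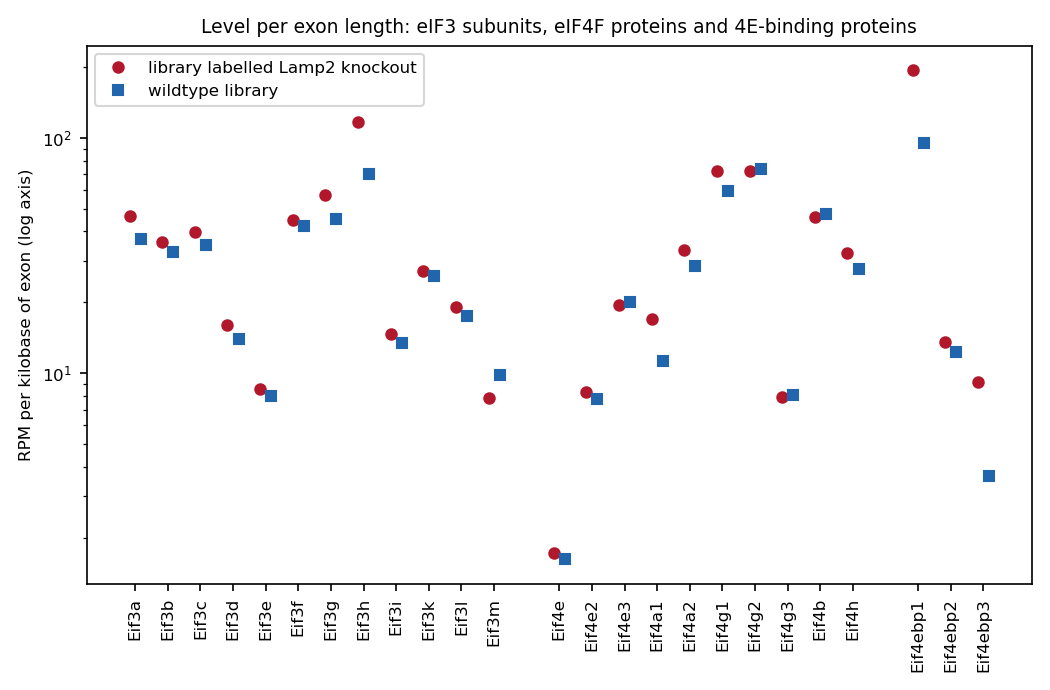
RPM per kilobase of exon (y axis, log scale) of eIF3 subunits, the eIF4F proteins with paralogs and cofactors, and 4E-binding proteins. Red circles are the library labelled Lamp2 knockout and blue squares the wildtype library, 1 library each. Eif3h is the highest eIF3 subunit in both libraries, Eif4e is the lowest gene plotted, and Eif4ebp1 is the highest at 194 and 95.02.

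eIF4F brings the small ribosomal subunit to the capped end of the messenger RNA, and its genes differed in direction. Of 10 measured rows, 6 had a ratio above 1 and 4 below, which became 4 and 6 under each rescaling. The counting interval lay above 1 for 4 rows and below 1 for 0 on the deposited scale, for 3 and 3 after division by the median ratio, and for 2 and 4 with the total that leaves out mitochondrial rows and the 10 rows with most reads. On the deposited scale, 35.0% of all measured rows had intervals above 1 and 16.8% below. These interval shares under the rescalings are not given here. The summed ratio of the eIF4F rows was 1.08 (1.06 to 1.10). Eif4e, the cap-binding protein itself, had 91 reads in the knockout-labelled library and 82 in the wildtype library. That is 10.4 against 9.75 RPM, a ratio of 1.06 (0.781 to 1.45). Eif4e2, which binds caps without joining eIF4G, had 548 and 489 reads, or 62.5 and 58.1 RPM, a ratio of 1.07 (0.949 to 1.22). Eif4e3 had 430 and 425 reads, or 49.0 and 50.5 RPM, a ratio of 0.970 (0.846 to 1.11). Per kilobase of exon Eif4e was the lowest of these paralogs, at 1.73 and 1.62 RPM, below Eif4e2 at 8.33 and 7.76 and Eif4e3 at 19.5 and 20.1. The order was the same with the longest transcript lengths. The annotation holds 1 pseudogene near-identical to part of Eif4e, and a protein-coding gene on the same strand, Gm20696, shares 373 bases of exon with Eif4e3. The part of such reads in these levels was not tested. Eif4e1b, known from oocytes, was listed at 0 reads in both libraries, which allows up to 0.342 RPM (knockout label) and 0.357 RPM (wildtype).

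The scaffold paralogs differed from each other. Eif4g1 had 4635 reads in the knockout-labelled library and 3645 in the wildtype library, or 528 against 433 RPM, a ratio of 1.22 (1.17 to 1.27). Eif4g2, whose product lacks the eIF4E-binding part, had 6418 and 6281 reads, or 731 against 747 RPM, a ratio of 0.980 (0.946 to 1.01). Eif4g3 had 769 and 754 reads, or 87.6 and 89.6 RPM, a ratio of 0.978 (0.883 to 1.08). Relative to Eif4g2 within each library, Eif4g1 was 1.24-fold higher (1.18 to 1.32) in the knockout-labelled library, and relative to Eif4g3 it was 1.25-fold higher (1.12 to 1.39). For Eif4g2 against Eif4g3 the ratio of ratios was 1.002 (0.8995 to 1.12).

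Eif4a1 and Eif4a2 encode the interchangeable helicases of eIF4F. Eif4a1 had 643 reads in the knockout-labelled library and 410 in the wildtype library, or 73.3 against 48.7 RPM, a ratio of 1.503 (1.33 to 1.71), just under 1.5-fold once the pseudocount was added. Eif4a2, at 33.3 and 28.6 RPM per kilobase of exon above the 16.9 and 11.2 of Eif4a1, had 1558 and 1285 reads, or 178 against 153 RPM, and a ratio of 1.16 (1.08 to 1.25). Eif4a1 gave 33.7% of the summed level per kilobase in the knockout-labelled library and 28.2% in the wildtype library, and the ratio of ratios was 1.29 (1.12 to 1.499). The annotation holds 3 pseudogenes near-identical to Eif4a1, and small nucleolar RNAs overlap annotated exons of both genes. The helicase cofactors Eif4b and Eif4h were at 207 and 181 RPM in the knockout-labelled library and 211 and 155 RPM in the wildtype library, with ratios of 0.979 (0.917 to 1.05) and 1.17 (1.09 to 1.26).

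The 4E-binding proteins keep eIF4E from eIF4G, and Eif4ebp1 had the largest difference in RPM among them. Eif4ebp1 (chr8:27260327-27275656, mm10, plus strand) had 3742 reads in the knockout-labelled library and 1755 in the wildtype library, or 426 against 209 RPM, a ratio of 2.04 (1.93 to 2.16). Eif4ebp2, whose motif is printed beside that of Eif4ebp1 above, had 689 and 597 reads, or 78.5 against 71.0 RPM, a ratio of 1.11 (0.990 to 1.24), which became 0.974 with the total that leaves out mitochondrial rows and the 10 rows with most reads. There were 5.43 Eif4ebp1 reads per Eif4ebp2 read in the knockout-labelled library and 2.94 in the wildtype library, a ratio of ratios of 1.85 (1.63 to 2.09) that no scaling of the libraries can move. Relative to Eif4e, the target of the protein, there were 41.1 Eif4ebp1 reads per Eif4e read in the knockout-labelled library and 21.4 in the wildtype library, a ratio of ratios of 1.92 (1.3998 to 2.63). These pairs were chosen after their values were seen. The log2 ratio of Eif4ebp1 was 1.03 as deposited, so it stood just past 2-fold, and it was 0.91 after division by the median ratio and 0.84 with the total that leaves out mitochondrial rows and the 10 rows with most reads.

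Eif4ebp3 had 60 reads in the knockout-labelled library and 23 in the wildtype library, or 6.84 against 2.73 RPM, a ratio of 2.50 (1.52 to 4.24). It passed the minimum through its knockout-labelled value alone, so its ratio had to be above 1. The row of Ankhd1, the gene next to it on the same strand, ends at the same base, and another annotated protein-coding gene shares 501 bases of exon with Eif4ebp3, so reads may be shared. Ankhd1 was at 70.2 and 61.9 RPM, a ratio of 1.13 (1.01 to 1.28). Eif4enif1, which encodes the eIF4E transporter 4E-T, had 363 and 279 reads, or 41.4 against 33.2 RPM, with a ratio of 1.25 (1.06 to 1.46). Per kilobase of exon, Eif4ebp1 gave 89.5% of the summed level of the 3 binding protein genes in the knockout-labelled library and 85.6% in the wildtype library.

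Eif4ebp3 at 6.84 RPM was the row closest to the minimum of 5 RPM on its upper side, counting the higher library, followed by Eif2ak4 with 6.95 RPM in the knockout-labelled library and 7.49 RPM in the wildtype library. Eif5a2 was the row closest below it, with 2.17 RPM in the knockout-labelled library and 3.69 RPM in the wildtype library. Eif5a2 and Eif4e1b are the 2 rows that were not measured.

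Among the factors that act when the ribosomal subunits join, Eif6 differed most. Its product binds the large subunit and prevents joining until it is released. Eif6 (chr2:155819837-155826925, mm10, minus strand) had 419 reads in the knockout-labelled library and 237 in the wildtype library, or 47.8 against 28.2 RPM, a ratio of 1.69 (1.44 to 1.996). An antisense gene of the annotation shares 138 bases with its exons, and no source used here says that counting was strand-specific. Eif5b, the GTPase that drives joining, had 3523 and 3250 reads, or 402 and 386 RPM, a ratio of 1.04 (0.990 to 1.09), which became 0.915 (0.872 to 0.960) with the total that leaves out mitochondrial rows and the 10 rows with most reads. On the opposite strand, Rev1 shares 1643 bases of exon with Eif5b and was at 15.04 RPM (knockout label) and 13.4 RPM (wildtype).

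Eif5a, whose product carries the amino acid hypusine and helps ribosomes through difficult stretches and at termination, had 2533 reads in the knockout-labelled library and 1723 in the wildtype library. That is 289 against 205 RPM, a ratio of 1.41 (1.33 to 1.499). In the annotation, 2 pseudogenes are near-identical to part of the Eif5a coding sequence. The paralog Eif5a2 had 19 and 31 reads. Relative to Eif5a2, Eif5a was 2.40-fold higher (1.31 to 4.51) in the knockout-labelled library, a wide interval set by the low counts of Eif5a2. Of the enzymes that make hypusine, Dhps was at 15.7 and 10.7 RPM with a ratio of 1.47 (1.12 to 1.94), and Dohh was at 38.0 and 36.1 RPM with a ratio of 1.05 (0.896 to 1.23).

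Rows named as initiation factors with other roles lay in the same range. Eif4a3, a core protein of the exon junction complex, was at 35.6 RPM in the knockout-labelled library and 26.5 RPM in the wildtype library, a ratio of 1.34 (1.13 to 1.60). The annotation holds 3 other genes near-identical to part of Eif4a3, of which 1 is a pseudogene. Eif1ad had a ratio of 1.09 (0.877 to 1.35). Of the Argonaute rows, Eif2c2, which encodes the slicing Argonaute AGO2, was at 39.0 and 29.7 RPM with a ratio of 1.31 (1.11 to 1.55). That interval became 0.978 to 1.36 with the total that leaves out mitochondrial rows and the 10 rows with most reads. On the opposite strand, Chrac1 shares 219 bases of exon with Eif2c2 and had 316 reads (knockout label) and 207 reads (wildtype). The intervals of Eif2c1, Eif2c3 and Eif2c4 all held 1. Leaving out these 4 rows changed none of the counts of rows past 1.5-fold or 2-fold, or the median of 0.21.

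Promoters of 45 of the 57 rows' genes are in the RefSeq table of GRCm38.p6, as 250 bases before and 50 after an annotated start. The palindrome CACGTG, the E-box bound by MYC and by the TFEB family of lysosomal regulators, was searched in them because several initiation factors are known targets of MYC. It was found for 10 of the 45 genes, or 22.2%, against 8.09% of 27025 genes in the table, which are not limited to genes measured here. The match describes letters and not binding. Windows are printed for matches that lie before a start and outside annotated exons of the gene, for measured genes only. The motif is in capitals with 15 bases on each side. The Eif5a window lies inside the span of its row, chr11:69916712-69921958, and before annotated starts within the gene, by 185 and 74 bases.
Eif4a1 (chr11:69672592-69672627, minus strand): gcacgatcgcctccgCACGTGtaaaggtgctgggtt
Eif4g1 (chr16:20672658-20672693, plus strand): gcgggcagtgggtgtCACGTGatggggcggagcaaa
Eif3f (chr7:108934332-108934367, plus strand): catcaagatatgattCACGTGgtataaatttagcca
Eif3k (chr7:28981912-28981947, minus strand): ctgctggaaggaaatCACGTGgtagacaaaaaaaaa
Eif5a (chr11:69921440-69921475, minus strand): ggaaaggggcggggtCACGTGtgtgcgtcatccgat
The measured genes with the motif, 9 in number, had ratios between 1.05 and 1.503 and a median log2 ratio of 0.29 on the deposited scale. After division by the median ratio of all measured rows, Eif3f, Eif3k and Eif4e were below 1, at 0.978, 0.967 and 0.981, and the rest of the 9 above. A link between motif and ratio was not tested. The 35 measured genes with a promoter in the table and no match had ratios between 0.683 and 1.52 and a median of 0.19. No promoter entry was used for Eif4ebp1, Eif4ebp3, Eif3h and Eif6.

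The other genes of translation were read from 2 lists. In the list of translation control outside the initiation factors, 21 of 27 measured genes had ratios above 1, 2 lay past 1.5-fold upward and 0 past 1.5-fold downward, and the median log2 ratio was 0.20. Among all measured rows 61.2% had ratios above 1, 12.8% and 7.3% lay past 1.5-fold in these directions, and the median was 0.11. After division by the median ratio 18 of the 27 were above 1, with a median of 0.08. That division puts the median of all measured rows at 0. With the total that leaves out mitochondrial rows and the 10 rows with most reads, 15 were above 1, with a median of 0.02. Mknk2 alone was then past 1.5-fold. Of all measured rows, 44.0% were above 1 with that total, and the median of all was -0.063. The 1.5-fold genes on the deposited scale were those of the kinases that phosphorylate eIF4E. Mknk2 had 10996 reads in the knockout-labelled library and 5575 in the wildtype library, or 1253 against 663 RPM, a ratio of 1.89 (1.83 to 1.95). Mknk1 was at 18.4 and 10.46 RPM, a ratio of 1.75 (1.34 to 2.30). Mcts1, which with Denr recycles ribosomes and promotes reinitiation, had 229 and 146 reads and a ratio of 1.504 (1.22 to 1.86), short of 1.5-fold once the pseudocount was added.

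Of the mTORC1 kinase that phosphorylates 4E-binding proteins, Mtor was at 63.9 RPM in the knockout-labelled library and 54.9 RPM in the wildtype library. The ratio of Mtor was 1.16 (1.03 to 1.32). Rptor, the substrate-recruiting subunit of mTORC1, was at 24.6 and 32.3 RPM with a ratio of 0.761 (0.634 to 0.913). Akt1s1, which encodes the mTORC1 inhibitor PRAS40, was at 114 and 77.5 RPM with a ratio of 1.47 (1.33 to 1.63). In the same list, Deptor had a ratio of 0.801 (0.552 to 1.16) and Mlst8 0.846 (0.554 to 1.29). Rheb was at 0.927 (0.811 to 1.06), Tsc1 at 1.05 (0.891 to 1.24) and Tsc2 at 1.28 (1.19 to 1.38). A change in mTORC1 activity was not tested. Pabpc1, the poly(A)-binding protein that touches eIF4G, had a ratio of 1.39 (1.28 to 1.51), and Paip1 and Paip2, which stimulate and restrain it, had ratios of 1.44 (1.30 to 1.60) and 1.25 (1.19 to 1.32). Mtor, Rptor, Akt1s1, Deptor, Mlst8, Rheb, Tsc1, Tsc2, Pabpc1, Paip1 and Paip2 were singled out after their values were seen.

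Among 13 measured genes of elongation, termination and eIF5A modification, 11 had ratios above 1, with a median log2 ratio of 0.42. Past 1.5-fold lay 2 of them upward and 0 downward. Of all measured rows 61.2% had ratios above 1, 12.8% and 7.3% lay past 1.5-fold in these directions, and the median was 0.11. After division by the median ratio 10 of the 13 were above 1, with a median of 0.31. That division puts the median of all measured rows at 0. With the total that leaves out mitochondrial rows and the 10 rows with most reads, 10 were above 1, with a median of 0.25. Tufm alone was then past 1.5-fold. Of all measured rows, 44.0% were above 1 with that total, and the median of all was -0.063. Eef2k, the kinase that inactivates the elongation factor eEF2, was at 99.7 RPM in the knockout-labelled library and 58.7 RPM in the wildtype library, a ratio of 1.70 (1.52 to 1.90). Tufm, a mitochondrial elongation factor, was at 24.4 and 13.9 RPM, a ratio of 1.75 (1.39 to 2.22). Eefsec, the selenocysteine elongation factor, had a ratio of 1.58 (1.07 to 2.37) but fell short of 1.5-fold with the pseudocount. Eef1a2, the elongation factor form of adult muscle, and Eef2 took the most reads, at 1410.5 and 1264 RPM (knockout label) and 1241 and 1098 RPM (wildtype), with ratios of 1.14 (1.11 to 1.17) and 1.15 (1.12 to 1.18).

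**Figure D4:**
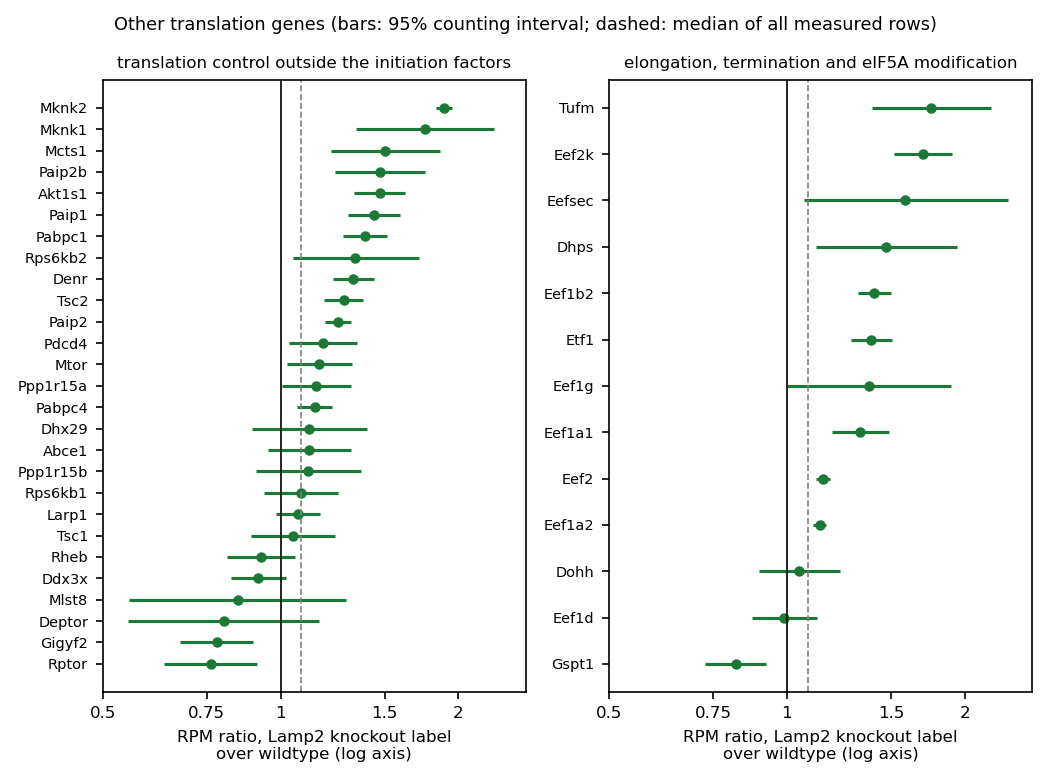
RPM ratios, knockout label over wildtype (x axis, log scale), of the measured genes of the 2 lists of translation genes outside the initiation factors, with 95% counting intervals as bars. Mknk2 and Tufm have the highest ratios of their lists, 1.89 and 1.75, and the dashed line marks the median ratio of all measured rows.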

How the data were processed

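The authors deposited 1 table for both libraries. Per the submitters' processing notes, STAR was used with mm10 and GRCm38. How reads were counted, with which annotation and strand setting, and what became of multiply mapping reads is not given in the sources used here. Per the file headers the table holds raw read counts per gene symbol. The RPM values deposited beside them are each count divided by its library total, times 1000000. Deposited starts count from 0 and are printed plus 1. The deposited fold ratio and p-value of the authors were not used.

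Ratios are of RPM with no pseudocount. Their 95% intervals are Clopper-Pearson bounds on the reads of both libraries, conditional on their sum. Ratios of ratios within libraries use the conditional odds ratio with its exact interval. Reads that carry no molecular identifier need not be separate molecules, and intervals and the floor of 3 counts cover counting error only. Counts past a size use log2 of RPM plus a pseudocount of 1. Exon lengths, overlaps and near-identical coding copies (blastn, at least 95% identity over 100 bases) come from GENCODE M21, which held all 57 rows, 4 of them under newer symbols. Calculations were tested on simulated data. Pseudocounts, minimums, scalings, a binomial requirement and transcript lengths were varied.

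By rule, reads, RPM and ratios were given for members with an RPM ratio past 1.5-fold, the eIF2 kinases, the 4E-binding proteins, the 4 rows with the highest summed RPM and measured paralogs, and listed genes past 1.5-fold were named. Other members and listed genes are given for their roles, after their values were seen. Members and lists were chosen with earlier results of these data known. Python 3.11.15, numpy 2.4.6, pandas 2.3.3, scipy 1.17.1, Biopython 1.88 and matplotlib 3.10.9 were used.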

Additional observations from a re-analysis of the deposited data

How the results depend on the processing

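The direction of the median log2 ratio of the measured rows was the same under every setting run. The value of 0.21 became 0.18 with a pseudocount of 5 RPM, 0.20 with a minimum of 1 RPM and with no minimum, 0.25 with a minimum of 20 RPM, and 0.0898, 0.0873 and 0.0238 after division by the median ratio, by a trimmed mean of log ratios and by a library total that leaves out mitochondrial rows and the 10 rows with most reads. The last setting left 31 of 55 ratios above 1, against 44.0% of all measured rows. The median over all measured rows moved as well, to 0, -0.0024 and -0.063 under these rescalings, in the same order.

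Of the 2 rows at least 2-fold higher, 1 remained (Eif4ebp1) with a pseudocount of 5 RPM or a minimum of 20 RPM, and 0 under each of the 3 rescalings. The 5 rows at least 1.5-fold higher became 2 (Eif4ebp1 and Eif4ebp3) with that total. The 0 rows at least 1.5-fold lower became 1 (Eif2a) under each rescaling. The settings that left out the Argonaute rows or rows overlapped on the opposite strand were added after seeing the data. With the longest transcript in place of all exons, 80 levels per kilobase moved beyond counting error and 30 did not. No paired analysis was possible because each group has 1 library. At this depth, ratios of genes with under about 100 reads, such as Eif2ak3 and Eif2ak4, are known only within wide intervals.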
